A study of Rattus norvegicus with 6 samples.

Results

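The day 55 array of a time course of cerebral hypoperfusion was compared with the arrays of days 45 and 70, the days on either side of it. These 3 of the 6 arrays of the series shared a slide, and 13736 of 17589 named genes could be compared. Each array held pooled RNA from the hippocampus of male Wistar rats. In the treated groups both common carotid arteries had been tied off permanently under isoflurane anaesthesia, and the remaining arrays held RNA of controls and of days 21 and 35. The labels give an age of 12 weeks for the control and of 13, 14, 15, 16 and 17 weeks for days 21, 35, 45, 55 and 70, steps of 1 week that do not follow the days. The sources used here do not say how many animals made up a pool or whether controls underwent sham surgery. The control array lay on the other slide with days 21 and 35, so its values are given beside those of day 55 only for orientation. The labels name the dye Cy5, whereas the deposited values stand in columns of the green channel.

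Tying off the common carotid arteries in rats leaves the vertebral arteries to feed the brain through the circle of Willis, and the hippocampus is among the regions known to be sensitive to the lasting shortage of blood. Neurons carry a set of immediate early genes that are transcribed within minutes of synaptic activity or stress, whereas genes of microglia, complement and antigen presentation report on the brain's immune cells and change more slowly. Hippocampal RNA also holds the RNA of blood in the vessels and of tissue left at the edges of the dissection. In bulk RNA, fewer cells of a type and less RNA per cell cannot be told apart.

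Levels are log2 intensities relative to the 75th percentile of the array, so a level of 0 is the intensity that 75% of its spots did not exceed. A difference is the level at day 55 minus the mean level at days 45 and 70, with values not well above background raised to a limit of their array. A gene entered the counts of higher or lower genes only if day 55, by these values, lay outside both of these days on the same side. With 1 array a day there was no replicate and no test, and the counts describe these 3 arrays and not the days. Probes were printed either once or in 10 spots, and over the 10 spots the median SD of log2 intensity was 0.06 at day 45, 0.06 at day 55 and 0.05 at day 70. This is the spread of one labelled RNA over one array, and it does not hold the spread between animals or labelling reactions. Of the spots, 74.5% at day 45, 79.2% at day 55 and 77.1% at day 70 were well above background, so day 55 had the most signal over background of the 3. The markers of the labelled tissue were present: on the day 55 array 19 of 21 markers of the CA1 to CA3 pyramidal cells and 14 of 15 markers of dentate granule cells were well above background. Their mean levels at days 45, 55 and 70 were -0.35, -0.31 and -0.24 for the pyramidal cell markers and -1.34, -1.31 and -1.30 for the granule cell markers.

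Few genes set day 55 apart by a large amount. At least 2-fold, 99 genes were higher at day 55 (0.721% of the 13736 compared) and 25 were lower (0.182%). Of the 99 higher genes, 30 were well above background on all 3 arrays and 98 rested on a single spot. In 82 of them day 55 had the highest value of all 6 arrays. Days 45 and 70 were lower by selection, and the remaining arrays lay on the other slide. Of the 25 lower genes, 13 were well above background on all 3 arrays, and 16 lay under 1.5-fold from one of the other days, so that the size of their difference came mainly from the other one. For Kcnj13, Lsmem2, Or6d13 and Or6e1 among them the measured day 45 value, not well above background, was below that of day 55. They counted as lower because the limit of the day 45 array, -6.19, was above that of day 55, -6.56. Just inside the 2-fold threshold stood Cyp2b3 with a difference of 1.0012 and just outside it Tent5c with 0.9986. On the lower side Plekho2 at 1.02 log2 units below the other days was inside and Aadacl2fm3l1 at 0.96 below was outside. The same count gave 103 higher (0.75%) and 46 lower genes (0.335%) for day 45 against days 55 and 70, and 110 (0.801%) and 34 (0.248%) for day 70 against days 45 and 55. These comparisons share their 3 arrays, and by this count day 55 did not stand farther from the others than days 45 and 70 did.

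**Figure D1:**
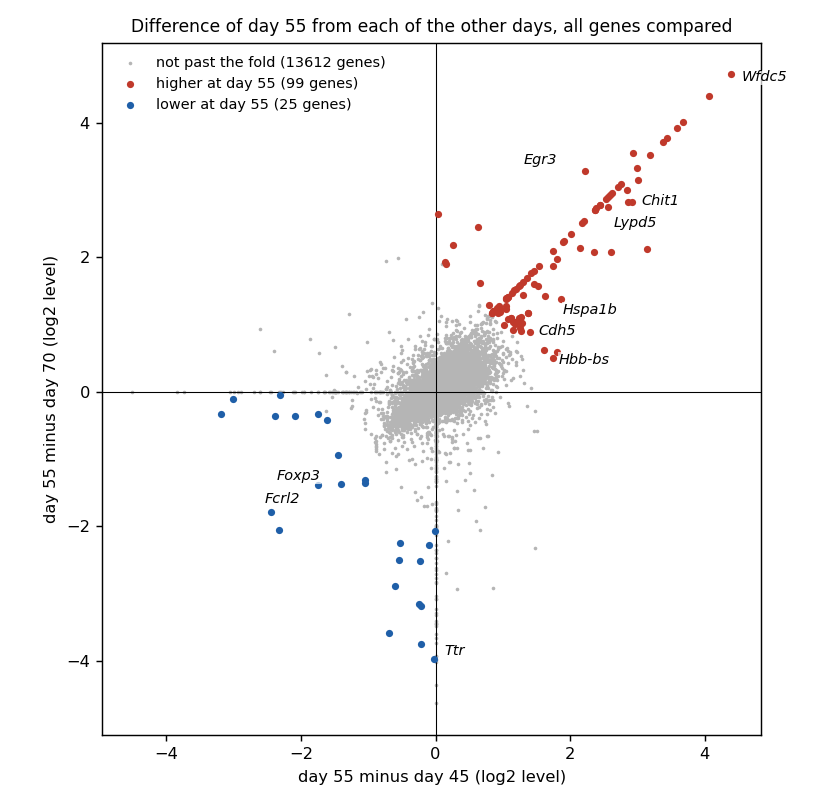
Difference of day 55 from day 45 (x axis) and from day 70 (y axis) in log2 level for the 13736 genes compared, 1 point a gene, with the 99 genes at least 2-fold higher in red and the 25 at least 2-fold lower in blue. Higher genes lie along the diagonal, most of them dim on both other days and so shown at the limit of those arrays, whereas most lower genes lie near one axis, as Ttr does, and points on an axis are genes dim on both arrays of a pair.

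Among the 12487 bright genes, those well above background and not saturated on all 3 arrays, 217 were at least 1.5-fold higher at day 55 (1.74%) and 83 lower (0.665%). Of these, 107 (0.857% of the bright genes) and 34 (0.272%) were at least 1.5-fold from each of the other days. The excess of higher genes sat among the dim ones. With the bright genes in 5 equal groups by level, the median difference of the dimmest group, at levels of -6.23 to -3.78, was 0.15, with 153 genes higher and 33 lower. In the brightest group, at 1.04 to 5.74, the median was -0.02, with 5 higher and 4 lower. The split depended on the scaling. Higher genes made up 72.3% of the bright genes past 1.5-fold, but 62.0% with median scaling, 39.3% and 38.2% with quantile normalization over the 6 or the 3 arrays, 44.1% with the authors' deposited values and 42.5% with the brightness trend removed. Of the genes past 2-fold they made up 79.8%, against 97.1% with normexp background correction, 60.8% and 58.2% with the 2 quantile normalizations, 64.9% with the trend removed and 51.6% where the limits of the arrays were kept in order. The part of brightness in the differences of single dim genes was not tested. Across all genes compared, of any size, 40.6% were above both other days and 30.6% below both, with a median difference of 0.02. In the brightest of the 5 groups these shares were 25.1% and 44.1%.

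**Figure D2:**
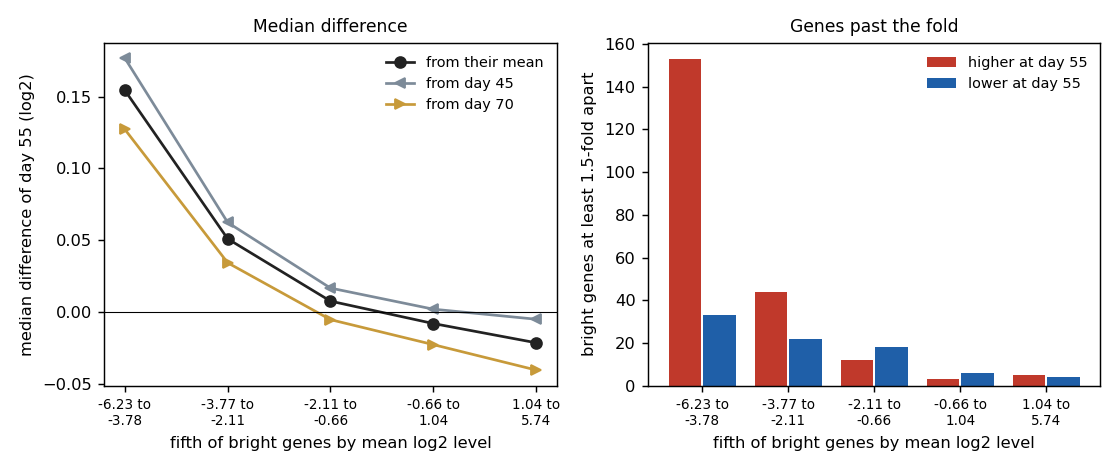
Bright genes in 5 equal groups by their mean log2 level on the 3 arrays (x axis, dimmest on the left). Left, the median difference of day 55 from days 45 and 70 and from their mean (log2), which goes from 0.15 in the dimmest to -0.02 in the brightest group. Right, bars for the number of genes at least 1.5-fold higher and lower at day 55, 153 and 33 in the dimmest group.

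Most immediate early genes stood above both neighbouring days at day 55. Of 26 measured members 19 were above both other days and 0 below both, against 40.6% and 30.6% of all genes, and the list's median difference was 0.19. The median over the same genes was 0.29 from day 45 and 0.13 from day 70. The early growth response factors Egr2 and Egr4 stand for the group below, since their promoters carry the letters TGACGT, the core of the cyclic AMP response element through which synaptic activity is known to switch on such genes. The 250 bases before the start of transcription in RefSeq GRCr8 are given from 5′ to 3′, on the minus strand at chr20:21054442-21054691 for Egr2 and at chr4:119607818-119608067 for Egr4, with each match of TGACGT, on either strand, in capitals.
Egr2: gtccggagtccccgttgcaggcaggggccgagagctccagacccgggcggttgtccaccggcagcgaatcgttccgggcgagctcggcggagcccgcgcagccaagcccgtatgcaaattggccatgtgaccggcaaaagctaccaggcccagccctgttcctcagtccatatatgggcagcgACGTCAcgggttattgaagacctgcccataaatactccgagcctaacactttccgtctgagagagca
Egr4: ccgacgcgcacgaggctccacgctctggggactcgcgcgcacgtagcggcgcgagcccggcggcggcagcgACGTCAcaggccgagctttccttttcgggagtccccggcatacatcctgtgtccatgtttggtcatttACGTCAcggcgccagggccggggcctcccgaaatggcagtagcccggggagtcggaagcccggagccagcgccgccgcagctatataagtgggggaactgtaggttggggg
The match in Egr2 began 67 bases before the start, and those in Egr4 began 179 and 111 bases before it. Of the 19 members with a promoter in that table, 9 held TGACGT, against 6.95% of all 33469 promoters of this length, and 5 held the full element TGACGTCA, against 1.59%. The full element was in Ier2, Btg2, Maff, Jund and Dusp1, whose differences lay between -0.11 and 0.12, so the letters did not single out the members that differed.

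Egr3, a transcription factor of the same family, had the largest difference of the list. Its level was -5.77 in the control, -5.58 at day 21, -5.54 at day 35, -5.48 at day 45, -3.25 at day 55 and -6.69 at day 70, the last not well above background. The day 55 array stood above the other 5, which lay close together apart from day 70. The difference of 2.75 was at least 6.73-fold with 1 of the 2 reference days well above background, it rested on 1 spot (probe at chr15:50479417-50479476, rn4), and averaging it with a second, dimmer probe of Egr3 gave 1.62. Egr2 was printed in 10 spots. It read -3.95, -3.74, -4.04, -4.75, -3.55 and -4.16 on the control, day 21, 35, 45, 55 and 70 arrays, 1.86-fold higher at day 55 with a difference of 0.90 and an SD of 0.15 from its spots, but 0.53 with normexp and 0.55 with the authors' deposited values, both under 1.5-fold. Day 55 was the highest array, the control and days 21 and 35 came next, and day 45 was the lowest.

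Klf4, a zinc finger factor of growth arrest and pluripotency, stood at -2.99, -2.0 and -2.47 at days 45, 55 and 70, 1.66-fold higher at day 55. Fos, a subunit of the AP-1 transcription factor, stood at -3.46, -2.85 and -3.19. It was at -2.91 and -2.82 in the control and at day 21, so that the day 55 level lay between theirs. Arc, which encodes a synaptic protein that regulates AMPA receptors, was at 1.80, 2.47 and 2.18 in 10 spots at the 3 days. Its difference of 0.48 compares with an SD of 0.04 from its spots, and its highest level outside day 55 and day 70 was 2.16 at day 35. Nr4a1, a nuclear receptor, and Dusp6, a phosphatase that switches off ERK, also each in 10 spots, had differences of 0.32 and 0.31 with spot SDs of 0.05 and 0.09. All 3 were above both neighbours by more than the spread of their spots, though by less than 1.5-fold.

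The differences were not large for every member. Egr1 was 0.20 higher by its main probe and 0.36 by its second, Nr4a2 0.12 and 0.15. Nr4a3, a close relative, differed by -0.01 by its main probe and by 0.91 by its second, so its direction was not settled. Dusp1, Nptx2, Jund and Maff had differences of -0.11, -0.09, -0.03 and -0.02. Fosb stood at -1.43, -1.13 and -1.19 at days 45, 55 and 70, against 0.10 in the control, and so day 55 shared the low level of its slide. The group's median lay between 0.13 and 0.29 over the 14 alternative settings.

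**Figure D3:**
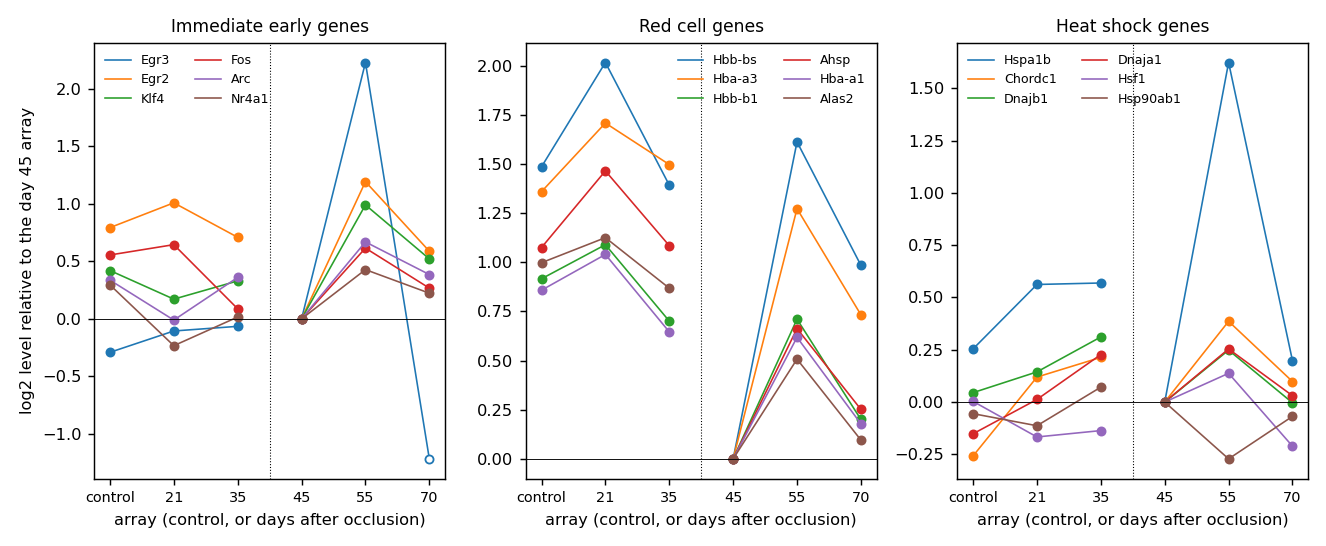
Log2 level on each array relative to the day 45 array (y axis) for 6 immediate early genes, 6 red cell genes and 6 heat shock genes, with the arrays of the first slide left and those of the other slide right of the dotted line. An open circle is not well above background, and each panel has its own y axis. Day 55 is the peak of its slide in every gene drawn except Hsp90ab1, and the red cell genes of the first slide are as high as at day 55 or higher, apart from Hbb-bs.

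A single heat shock gene stood out. Hspa1b, one of the pair of nearly identical genes for the inducible chaperone Hsp70, stood at -1.22 in the control, -0.91 at day 21, -0.91 at day 35, -1.48 at day 45, 0.15 at day 55 and -1.28 at day 70. All 5 other arrays lay within a narrow band and day 55 lay above it. The difference of 1.52, or 2.88-fold, was measured in 10 spots with an SD of 0.09 (probe at chr20:3957864-3957923, rn4), and it was the only gene printed in 10 spots among the 99 higher genes. A second probe, not well above background on all 3 arrays, brought the average of both to 0.65, and the 60 base probes may not separate Hspa1b from Hspa1a. Its promoter was not available for printing in the table used.

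The other members of the heat shock list differed less. The list had a median difference of 0.11, with 7 of 17 members above both other days and 5 below both, close to the shares of all genes. Chordc1 and the Hsp70 partners Dnajb1 and Dnaja1 were 0.34, 0.25 and 0.24 above, and Hsf1, the transcription factor that switches these genes on, 0.24. Bag3, in 10 spots, differed by 0.18. Hsp90ab1, the constitutive Hsp90, was at 3.52 at day 55 against 3.80 and 3.73, a difference of -0.24 that its second probe did not share (0.06). The small heat shock proteins Hspb1 and Cryab lay between the other 2 days. Among the genes of the unfolded protein response, Atf3, a stress-induced transcription factor, was 1.79-fold higher, at -4.63, -3.59 and -4.22. It was at -3.53 in the control and -2.42 at day 21, above its day 55 level, and its difference was 0.50, under 1.5-fold, with normexp and with the authors' deposited values. The list's median was 0.06.

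Genes of red blood cells were higher at day 55 than on either other array of the slide, but about as high as in the control. Of the 11 members measured 7 (63.6%) were above both other days and 0 below both, against 40.6% and 30.6% of all genes. The median difference of 0.53 was the largest of the 44 lists. The 250 bases before the start of the beta globin genes Hbb-bs and Hbb-b1 and the alpha globin gene Hba-a3, all on the minus strand of GRCr8 at chr1:167631631-167631880, chr1:167643521-167643770 and chr10:15816944-15817193, show the letters of a CCAAT box and a TATA box, on either strand, in capitals. They are printed because these genes had the largest differences of the list. Globin genes are a family of close copies, and their probes may not tell them apart.
Hbb-bs: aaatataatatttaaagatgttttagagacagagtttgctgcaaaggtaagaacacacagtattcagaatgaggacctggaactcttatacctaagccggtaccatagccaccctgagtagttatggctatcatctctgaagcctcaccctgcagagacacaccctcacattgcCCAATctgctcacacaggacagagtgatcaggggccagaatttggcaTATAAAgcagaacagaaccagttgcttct
Hbb-b1: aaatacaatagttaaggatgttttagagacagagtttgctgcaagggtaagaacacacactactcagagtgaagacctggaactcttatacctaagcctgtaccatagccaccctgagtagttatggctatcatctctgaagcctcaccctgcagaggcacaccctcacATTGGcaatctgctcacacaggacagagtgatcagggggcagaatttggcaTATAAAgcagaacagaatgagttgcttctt
Hba-a3: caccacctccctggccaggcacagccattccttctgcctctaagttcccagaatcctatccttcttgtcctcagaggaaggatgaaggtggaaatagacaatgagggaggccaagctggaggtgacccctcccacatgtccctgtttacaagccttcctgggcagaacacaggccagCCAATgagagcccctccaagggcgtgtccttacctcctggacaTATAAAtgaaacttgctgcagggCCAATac
TATAAA lay 29, 30 and 30 bases before the start, and the nearest CCAAT upstream of it 76, 81 and 73 bases before. Both are common: 34.0% of all promoters in the table held CCAAT and 12.9% TATAAA.

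Hbb-bs stood at 2.0 in the control, 2.53 at day 21, 1.90 at day 35, 0.51 at day 45, 2.12 at day 55 and 1.5 at day 70. Days 45 and 70 were the low arrays, and day 55 lay within the range of the first slide. The difference of 1.12, or 2.17-fold, was the only one of the list past 2-fold (probe at chr1:161578128-161578187, rn4). Hba-a3 followed the same order at -4.28, -3.01 and -3.55 on days 45, 55 and 70, with -2.92 in the control, and was 1.87-fold higher at day 55. Hbb-b1 stood at 3.37, 4.08 and 3.57, and its second probe differed by 0.73 against 0.61 for the first. Hba-a1, Hbb and Ahsp, which encodes a chaperone of alpha globin, differed by 0.53, 0.53 and 0.54, each with a second probe at 0.48, 0.45 and 0.65.

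Alas2, the red cell enzyme of haem synthesis, differed by 0.46 and thus moved with the globins, with which it shares no sequence. Slc4a1, the anion exchanger of the red cell membrane, was well above background at day 55 and not at days 45 and 70. Its level of -6.49 was too near the limit to give an order. Bpgm and Slc25a37, which other cells also express, differed by -0.05 and -0.03. The mean level of the 10 members measured on all 6 arrays was 0.19, 0.26 and 0.12 on the control, day 21 and day 35 arrays and -0.61, 0.00 and -0.32 at days 45, 55 and 70. The part of blood content in other differences was not tested. The list's median ranged from 0.35 with the authors' deposited values to 0.61 with day 45 alone as the reference.

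**Figure D4:**
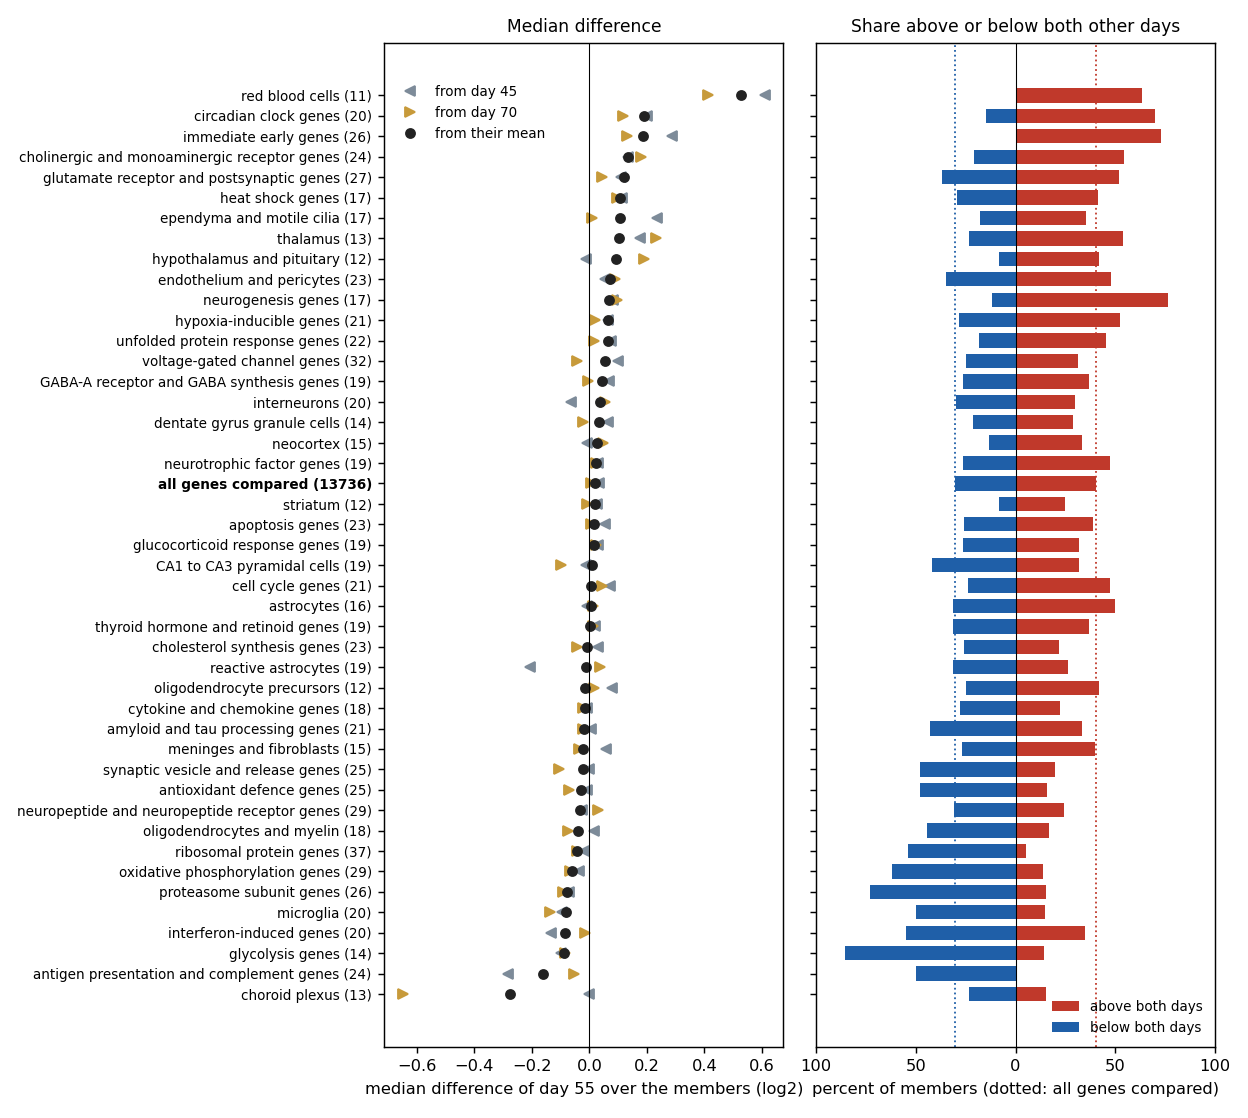
For each of 44 gene lists and for all genes compared (bold), with the number of genes in brackets: left, the median difference of day 55 from day 45, from day 70 and from their mean (log2), and right, the percentage of members above both other days (red) and below both (blue), with dotted lines for all genes at 40.6% and 30.6%. Red cell genes lead with 0.53, and choroid plexus genes are last at -0.28 because of day 70 alone.

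Clock genes made up the list with the next largest median, 0.19. Of 20 members 14 (70.0%) were above both other days and 3 (15.0%) below both, against 40.6% and 30.6% of all genes. Their median level of -2.61 lay in the next to dimmest of the 5 groups of bright genes, where the shares were 45.7% and 28.2%. Clock and Per1, an activator and a repressor of the core loop, stood 0.44 and 0.42 above the other days, though Per1 differed by -0.01 with the authors' deposited values, and Per3, Per2 and Nfil3 0.33, 0.31 and 0.37. Per2, printed in 10 spots, was at -1.42, -1.20 and -1.60 at days 45, 55 and 70. Nr1d1, the repressor Rev-erb alpha, went the other way, at -2.15, -2.87 and -2.50. It was thus 1.46-fold lower at day 55, a level it also had at day 21 (-2.84). Dbp, an output gene of the clock, differed by -0.15 and its 2 further probes by -0.24 and -0.19, whereas Tef, its relative, lay between the other 2 days. No member passed 1.5-fold, and the list's median was 0.06 with the authors' deposited values.

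Genes of new neurons mostly lay above both days, by small amounts. Of 17 neurogenesis genes measured 13 (76.5%) were above both other days and 2 (11.8%) below both, against 40.6% and 30.6% of all genes. The median was 0.07, against 0.02 for all genes. Calb2, the calretinin of immature granule cells, interneurons and thalamic nuclei, was 1.54-fold higher at -1.06, -0.54 and -1.27, but it was higher still at day 35 (-0.35), and with normexp its difference of 0.58 was just under 1.5-fold. Sox11 and Dlx2, factors of young neurons, differed by 0.46 and 0.31, and Dcx, the doublecortin of migrating neuroblasts, by 0.25 with 0.41 in its second probe. Dcx at day 55 (-0.55) lay near its level in the control (-0.48).

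Markers of the thalamus, which borders the hippocampus in a dissection, had a median of 0.10. Above both days were 7 of 13 (53.8%) and below both 3 (23.1%), against 40.6% and 30.6% of all genes. Their median level of -2.42 lay in the next to dimmest of the 5 groups of bright genes, where the shares were 45.7% and 28.2%. Zic1, a zinc finger factor of the medial habenula, thalamus and septum, was 1.84-fold higher at -4.30, -3.30 and -4.06, and it stood at -3.46 and -3.26 at days 21 and 35. Rgs16, a regulator of G protein signalling, was 1.52-fold higher, though by 0.28 with the authors' deposited values, and Prkcd, in 10 spots, differed by 0.34. Slc17a6, the vesicular glutamate transporter of subcortical neurons, also in 10 spots, differed by 0.33. Ramp3, likewise in 10 spots, was lower, at -3.56, -4.24 and -3.80. The mean level of the 13 markers was -2.39, -2.24 and -2.47 at days 45, 55 and 70 and -2.24 in the control, and the share of neighbouring tissue in the other differences was not tested.

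Receptor genes of both main lists lay above both days in about as many members. Among cholinergic and monoaminergic receptor genes 13 of 24 (54.2%) were above both days and 5 (20.8%) below both, with a median of 0.13. These values were near those of the dimmest of the 5 groups of bright genes, 56.2%, 17.6% and 0.15. Chrm2, the muscarinic M2 receptor, was at -4.86, -4.17 and -4.75, 1.55-fold higher at day 55, yet close to its control level of -4.21, and 0.35 higher, under 1.5-fold, with normexp and with the authors' deposited values. Chrna5 and Chrnb2, nicotinic subunits, differed by 0.53 and 0.52, and Chat, the enzyme that makes acetylcholine, by 0.45. All 4 were dim, below the middle of the bright genes, and the list's median was 0.02 under quantile normalization over the 6 arrays. In the list of glutamate receptor and postsynaptic genes 14 of 27 (51.9%) were above both days and 10 (37.0%) below both. The shares of all genes were 40.6% and 30.6%, and the list's median was 0.12. Over its members printed in 10 spots the median was -0.18. Cacng8, an AMPA receptor partner, Camk2a, the kinase of synaptic plasticity, and Grm5 differed by 0.36, 0.30 and 0.29. Grin1, the obligatory NMDA receptor subunit, had -0.38 by one probe and 0.74 by the other, so no direction was given. GABA receptor genes, with a median of 0.04, and voltage-gated channel genes, with 0.05, were near the median of all genes.

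Of 25 synaptic vesicle genes 12 (48.0%) were below both days and 5 (20.0%) above both, shares near those of the brightest of the 5 groups of genes, 44.1% and 25.1%. The median was -0.02, and it was 0.00 from day 45 and -0.11 from day 70. Napa, which encodes the alpha-SNAP that takes apart SNARE complexes, stood at 1.79, 1.10 and 1.70 at days 45, 55 and 70. It was 1.56-fold lower at day 55, and low also at day 21 (1.14). Rab3a, a small GTPase of vesicles, was at 1.03, 0.60 and 1.14, and Syp and Slc17a7, synaptophysin and the main hippocampal vesicular glutamate transporter, each differed by -0.28. Napa alone of the synaptic vesicle list passed 1.5-fold, and a difference between this list and the postsynaptic one was not tested.

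In the list of complement and antigen presentation genes no measured member was above both other days at day 55, and C1qc alone passed 1.5-fold. Of the 24 members 12 (50.0%) were below both and 0 above both, against 30.6% and 40.6% of all genes, and the list's median was -0.16. This median was -0.28 from day 45 and -0.05 from day 70, so that most of it came from day 45. C1qc, a chain of the C1q complex that starts the classical complement pathway, was the clearest member. It stood at -1.65 in the control, 0.00 at day 21, -1.5 at day 35, -1.43 at day 45, -2.20 at day 55 and -1.34 at day 70. Day 55 was the lowest of the 6 arrays, 1.75-fold below its neighbours (probe at chr5:155656638-155656697, rn4). The other C1q chains, C1qa and C1qb, were lower by less, with differences of -0.26 and -0.13, and both were above their control levels of 1.38 and 2.41 at 1.44 and 2.64.

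C2, a protease of the same pathway, was at -2.82, -3.50 and -3.12, and its second probe differed by -0.63 against -0.53. RT1-DMa, which loads peptides onto MHC class II, was at 0.09, -0.40 and 0.09. Tap1 and Psmb8, a peptide transporter and an immunoproteasome subunit, differed by -0.32 and -0.25. The class II genes proper behaved otherwise: Cd74, the invariant chain, stood at -1.23, -2.03 and -2.33 and RT1-Da at -3.59, -4.55 and -4.88 at days 45, 55 and 70, and both lay between their neighbours. Outside the list, RT1-M1-5 and RT1-M1-4 were 2.12-fold and 3.71-fold higher at day 55, each on 1 spot, and no RT1 gene was 2-fold lower. For RT1-M1-4 only 1 of the 2 reference days was well above background. RT1 genes are a family of near-identical copies, and their probes may not tell them apart. C3, C4a and Serping1, the C1 inhibitor, differed from day 45 by -0.42, -0.35 and -0.37 and from day 70 by -0.01, 0.03 and 0.02.

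**Figure D5:**
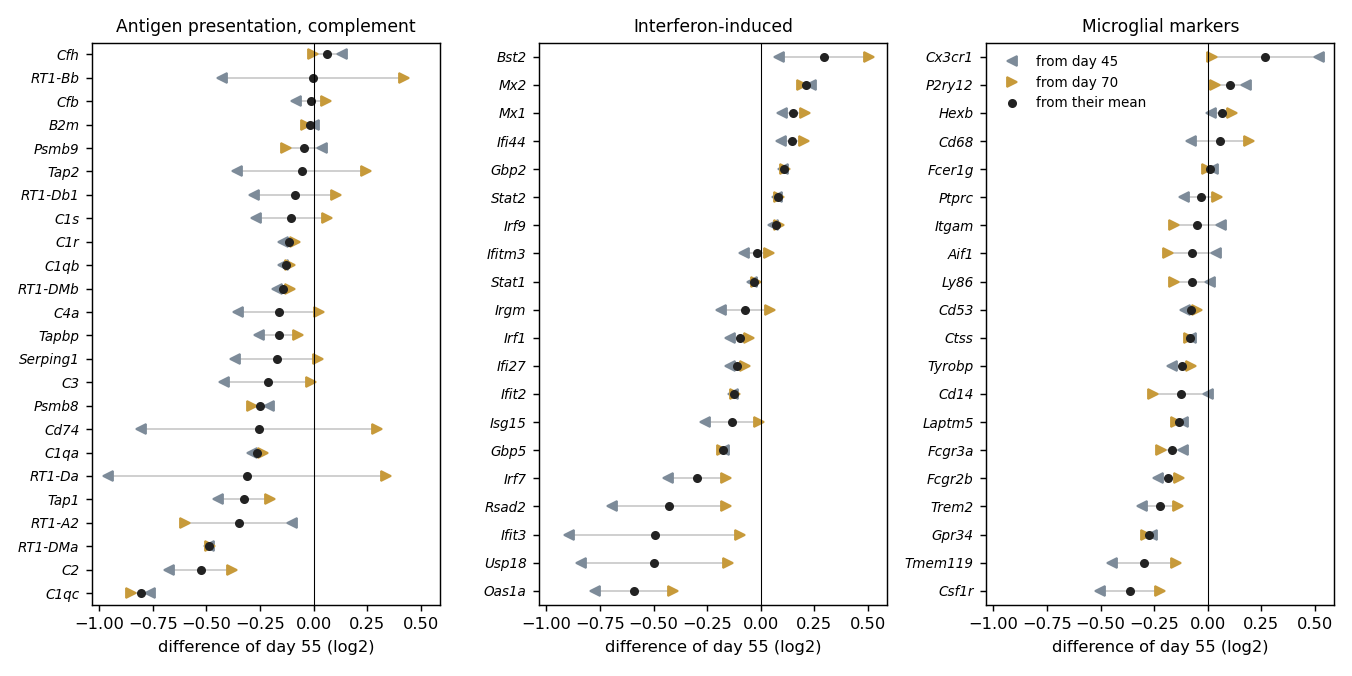
Difference of day 55 from day 45, from day 70 and from their mean (x axis, log2 level) for each measured member of 3 lists (y axis): 24 antigen presentation and complement genes, 20 interferon-induced genes and 20 microglial markers. Grey lines join the 2 differences of a gene. Day 55 is below both days in 12, 11 and 10 members, C1qc being the lowest at -0.81.

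Interferon-induced genes lay on both sides of the other days. Of 20 measured 11 (55.0%) were below both days and 7 (35.0%) above both, against 30.6% and 40.6% of all genes. The list's median was -0.09, or -0.14 from day 45 and -0.01 from day 70. Oas1a, an enzyme that senses viral RNA, was at -3.96, -4.73 and -4.32, 1.51-fold lower at day 55. Usp18, Ifit3 and Rsad2, which restrain interferon signalling or block viruses, differed by -0.50, -0.49 and -0.43, each mainly from day 45. Mx2, Mx1, Ifi44 and Bst2, of the same response, were above by 0.21, 0.15, 0.15 and 0.29. With normexp background correction Oas1a differed by -0.24, under 1.5-fold. Cytokine and chemokine genes had 4 of 18 (22.2%) above both days and 5 (27.8%) below both, with a median of -0.02. The chemokine Cxcl10, another interferon target, was 1.65-fold lower at -4.94, -6.18 and -5.97, but differed by -0.15 with normexp. Cxcl12, a chemokine of stromal and endothelial cells, was 1.67-fold higher at 0.48, 1.35 and 0.75, with 0.12 in its second probe.

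Microglial markers had small differences, more of them below than above. Of 20 measured 10 (50.0%) were below both days and 3 (15.0%) above both, against 30.6% and 40.6% of all genes, with a median of -0.08. Gpr34, Trem2 and Tyrobp, receptors and an adaptor of microglia, differed by -0.27, -0.22 and -0.12. Csf1r and Tmem119 had -0.36 and -0.30 by their main probes but 0.48 and 1.38 by others, so they carry no direction. Cx3cr1, the fractalkine receptor, went the other way with 0.27, and Cd68, a lysosomal marker of activated microglia, was level at -3.16, -3.24 and -3.43. Spp1, the secreted phosphoprotein osteopontin, printed in 10 spots, stood at -5.72 in the control, 0.43 at day 21, -4.36 at day 35, -4.96 at day 45, -4.42 at day 55 and -5.33 at day 70. It was 1.66-fold higher at day 55 with a spot SD of 0.14, but by 0.38 with normexp, under 1.5-fold, and it was far under its day 21 level. Gfap, the intermediate filament of astrocytes, was lower in 10 spots at 0.00, -0.43 and -0.30, below its control level of -0.16. The list of reactive astrocyte genes as a whole had a median of -0.01.

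Genes of energy metabolism and protein turnover lay below both days in most members, by small amounts and none past 1.5-fold. Of 14 glycolysis genes 12 were below both days and 2 above both, with a median of -0.09. Aldoa, the aldolase of muscle and brain, was at 3.85, 3.37 and 3.71, and Gpi differed by -0.28. Gapdh differed by -0.08, and by -0.32 and -0.19 in its further probes, whereas Pkm was 0.05 higher by its main probe and 0.54 and 0.43 lower by the others. Of 29 oxidative phosphorylation genes 18 were below both and 4 above both, with a median of -0.06. Uqcrc1, a core subunit of complex III, was at 2.01, 1.38 and 1.84, and Atp5f1b, the beta subunit of ATP synthase, in 10 spots, differed by -0.41 with a spot SD of 0.04. Both were also low at day 21, at 1.58 and 1.19.

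Of 26 proteasome subunit genes 19 were below both days and 4 above both, with a median of -0.08, and Psmb5, a catalytic subunit, differed by -0.32. Of 37 ribosomal protein genes 20 were below both and 2 above both, with a median of -0.04. These lists hold some of the brightest genes on the arrays, and in the brightest of the 5 groups 44.1% of all genes were below both days. The medians of all 4 lists kept their sign under the settings run, but some came near 0. The values nearest 0 were -0.07 for glycolysis, -0.03 for oxidative phosphorylation, -0.06 for proteasome and -0.02 for ribosomal protein genes. Probes rich in G and C were lower too: in the 5th of 5 equal groups by probe GC content 33.8% of bright genes were above both days and 41.1% below both. The part of brightness and GC content in these differences was not tested.

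Choroid plexus genes were lower at day 55 than at day 70 and not lower than at day 45. Ttr, transthyretin, the main product of the choroid plexus, stood at 1.53 in the control, 5.66 at day 21, 4.69 at day 35, 1.5 at day 45, 1.48 at day 55 and 5.44 at day 70. It fell into a low and a high set of arrays, and day 55 belonged to the low one with the control. The difference of -1.99 from the mean was -0.02 from day 45 and -3.96 from day 70, so it passed the threshold through day 70 alone. Kcnj13, a potassium channel of the plexus, also passed through day 70 alone, with a difference of -3.15 from that day. Its day 45 value of -6.53 was not well above background and lay below the -6.44 of day 55. It counted as above day 55 only because it was raised to the day 45 limit of -6.19. With normexp Ttr differed by -1.95, Kcnj13 by -0.62 and Fcrl2, described below, by -1.27. Only 1 of all genes compared then counted as at least 2-fold lower, since day 55 also had to lie below both days. Ttr differed from day 45 by only -0.02 without normexp, so it need not be the gene that still counted. Sostdc1, in 10 spots, was not well above background at days 45 and 55 and stood at -2.63 at day 70. Otx2, a factor of the plexus epithelium, was high at days 55 and 70 (-2.89 and -2.96) and low at day 45 (-4.31). The list's median was 0.00 from day 45 and -0.65 from day 70, and it was 0.28 with day 45 alone as the reference, over the genes that could then be compared.

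The vascular list went both ways. Cdh5, VE-cadherin of endothelial junctions, was at -3.99, -2.62 and -3.79, 2.41-fold higher at day 55 and above all other arrays. Tie1, an endothelial receptor kinase, was at -4.54, -5.58 and -4.28, 2.26-fold lower and below all others. Tek, a related receptor, not well above background at day 45, differed by 0.52 and Abcb1a, the P-glycoprotein of the blood-brain barrier, by 0.50. Each rested on 1 spot. Of 23 members 11 (47.8%) were above both days and 8 (34.8%) below both, against 40.6% and 30.6% of all genes, with a median of 0.07. With normexp Cdh5 differed by 0.89, under 2-fold, and Tie1 by -0.41, under 1.5-fold. Markers of the same cells thus did not move together.

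Among other genes of disease interest, Bace1, the beta secretase, Mme, the amyloid-degrading neprilysin, and Adam10, the alpha secretase, were 0.57, 0.51 and 0.41 above the other days, all dim, in a list whose median was -0.02. Second values tempered some of these: Bace1 was 0.31 with the authors' deposited values and a second probe of Adam10 gave 0.14. Thrb and Rarb, receptors for thyroid hormone and retinoic acid, were 1.68-fold and 1.58-fold higher, whereas Thra differed by -0.35. With the authors' deposited values Thrb and Rarb differed by 0.43 and 0.18, under 1.5-fold. Gpx3, a secreted glutathione peroxidase, was 1.72-fold higher at -5.88, -4.88 and -5.44, though by 0.34 with those values, while Txnrd1 had -0.37 by one probe and 0.36 by the other. Mlc1, a membrane protein of astrocyte endfeet, was 1.52-fold lower at 1.31, 0.59 and 1.08 (a difference of -0.56 with the authors' deposited values, under 1.5-fold), and Cnp, of myelin, 1.43-fold lower. Hypoxia-inducible genes had 11 of 21 (52.4%) above both days and 6 (28.6%) below both, against 40.6% and 30.6% of all genes. Their median was 0.06, and -0.03 with the authors' deposited values. Slc2a3, a glucose transporter, and Vegfa differed by 0.36 and 0.18, and Ndrg1 and Pfkfb4, a regulator of glycolysis, by -0.29 and -0.30.

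Several large differences belonged to genes outside the lists, each on a single spot. Among genes well above background on all 3 arrays, Chit1, a chitinase of activated macrophages, stood at -3.99 in the control, -4.27 at day 21, -4.16 at day 35, -5.29 at day 45, -2.45 at day 55 and -5.45 at day 70. Day 55 was the highest array and 7.56-fold above its neighbours, which were the lowest. Lypd5, a membrane protein of the Ly6 family, was at -5.68, -2.82 and -5.65 at the 3 days, 7.19-fold higher, but -3.22 at day 21 came near it. Mei4, a meiosis gene, and Atpsckmt, a methyltransferase, were 4.65-fold and 4.41-fold higher, with all 5 other arrays between -5.43 and -5.11. Lactbl1, Plekhh2, Pld4, Zp3 and Or4g16 followed at 3.51-fold, 2.93-fold, 2.89-fold, 2.58-fold and 2.29-fold. Or4g16 is one of many similar odorant receptor genes.

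These values shrink with other treatments of the background. With the authors' deposited values the difference was 2.18 for Chit1, 1.91 for Lypd5 and 1.45 for Hspa1b, and with a model-based background correction (normexp) 1.74, 1.55 and 1.41. Normexp also brought Lactbl1, Plekhh2, Zp3 and Or4g16 under 2-fold, to 0.98, 0.84, 0.70 and 0.68. Hspa1b, the brightest of them and the only one in 10 spots, changed least. Of the genes not well above background on both other days, Wfdc5, a protease inhibitor, was at least 23.5-fold higher, Atp1a4 at least 18.8-fold, Ces2e at least 14.4-fold, Adamts12 at least 13.5-fold and Mst1r at least 12.2-fold. Wfdc5, Atp1a4 and Ces2e were not well above background on any other array, and the average over both probes of Wfdc5 gave 1.02.

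Of the leading lower genes, 4 were at least 1.91-fold below each neighbour. Fcrl2, an Fc receptor-like gene, stood at -2.19 in the control, 0.63 at day 21, -2.23 at day 35, -1.38 at day 45, -3.12 at day 55 and -1.74 at day 70. Day 55 was its lowest array, 2.96-fold below its neighbours. Foxp3, the master factor of regulatory T cells, was 2.60-fold lower at -2.37, -3.77 and -2.41, but lower still at day 35 (-4.15), and under 2-fold with normexp (-0.99). Niban1, a stress response gene, was 2.28-fold lower at -2.15, -3.60 and -2.67, but averaging it with a second, dimmer probe gave -0.32, and Tie1 is given above. For Spdef, Slc45a2, P2rx4, Rasl12, Tcam1 and RGD1563302 the difference came mainly from 1 day: P2rx4, an ATP-gated channel, was at -1.95, -4.34 and -3.97, so that day 45 was the array apart. Of the genes not well above background at day 55, Zkscan4 was at least 4.55-fold lower and Or12d17 at least 4.34-fold, from both days, and Or52e51, Gprasp3 and Otud6a mainly from 1. With normexp each of these lower genes was under 2-fold except Fcrl2 (-1.27). Among bright genes in 10 spots, Akr1b1, an aldose reductase, was 1.59-fold lower at -1.44, -2.08 and -1.40, with a spot SD of 0.04, and the lowest of all 6 arrays.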

How the data were processed

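RNA of 6 pooled hippocampus samples was hybridised to 6 one-colour Agilent arrays, 1 a group. Per the file headers, the authors deposited scanner output of Feature Extraction 10.7.3.1 as intensity, background-subtracted with a spatial surface and multiplicatively detrended, with no scaling between arrays. The authors' deposited value table, set against each array, had rank correlations of 0.9998 to 0.9999 with the background-subtracted mean intensity. Here, control and outlier spots were left out of 44254 spots, and the processed intensity was taken as log2 minus the array's 75th percentile, averaged over the spots of a probe. Of several probes of a gene (3071 genes), the one with the highest mean was taken. Genes dim on all 3 arrays, or saturated on all 3, were not compared. A value not well above background was raised to the lowest level well above background on its array, or kept where already higher. Where 2 values were both not well above background they were given no order, a rule added after the data were seen. Days 45, 55 and 70 shared 1 slide and 1 scan. Probe positions are on rn4 per the file headers, and names and promoters come from RefSeq GRCr8. Named genes were the 12 highest and 12 lowest past 2-fold that were well above background on all 3 arrays, the 5 largest bounds each way, per list every called member and up to 4 with the largest difference, called genes in 10 spots, and Spp1, Ttr, Cd68, Gfap, Fos and Arc, and genes outside that rule were chosen after their values were seen. Members and lists were chosen with earlier results of these data known. With 1 array a group no test was made. Alternatives changed background, scaling, probes, filter, reference day and fold rule. Python 3.11.15, pandas 2.3.3, numpy 2.4.6, R 4.3.3 and limma 3.58.1 were used. The comparison was tested on simulated shifts in genes well above background on all 3 arrays. The rules for values not well above background were not tested in this way. Some genes that this rule names are not reported here.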

Additional observations from a re-analysis of the deposited data

How the results depend on the processing

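The counts are of genes at least 2-fold higher (99) and lower (25), then of bright genes at least 1.5-fold higher (217) and lower (83). They became 34, 1, 49 and 23 with normexp, and 62, 40, 92 and 142 with quantile normalization over 6 arrays. Over the 3 arrays it left 71 higher and gave 51, 108 and 175 for the others. The authors' deposited values gave 42, 14 and 52 for the first 3. Requiring signal well above background on all 3 arrays gave 30 and 13 at 2-fold, and no filter 601 and 208. Day 45 alone as the reference gave 99 lower, 423 and 187, and day 70 alone 122 lower and 140 bright lower. The fold from each day gave 6 lower, 107 and 34. Probes in 10 spots gave 1, 0, 7 and 1. Of the alternatives chosen after seeing the data, removing the brightness trend gave 39 lower, 107 and 145, and keeping the limits of the arrays in order 93 lower. The cause was not tested. Median scaling, the mean of all probes and keeping outlier spots left all 4 counts within 1.5 times. No paired analysis was possible because each group had 1 array and the labels carry no replicate numbers. Signal over background limits the dim genes: 30 of the 99 higher genes were above it on all 3 arrays.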
